A study of Homo sapiens with 6 samples.

Results

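The data describe 10 heat shock genes in human cells labelled hepatoblasts: the transcription factor HSF1, 6 cytosolic chaperone genes of the HSP70, J-domain, HSP110 and HSP90 families (HSPA1A, HSPA1B, HSPA8, DNAJB1, HSPH1 and HSP90AA1), the small heat shock protein gene HSPB1, and the mitochondrial chaperonin genes HSPD1 and HSPE1. They were chosen by symbol, with no cut on a measured value, from 60623 genes with 1 value each, and each symbol matched 1 row. All 10 passed the filter for testing, at least 1 TPM (a share of the library's transcripts, adjusted for their length) in 3 or more of the 6 libraries, as did 15664 genes in all. The study exposed cells to HFPO-TA (the trimer acid of hexafluoropropylene oxide, one of the perfluorinated ether acids), with 3 libraries, and set them against cells given 0.1% DMSO, the vehicle, with 3 libraries. All cells descend from 1 line, the human embryonic stem cell line H9, were differentiated towards liver, were taken at day 19 and carry the label hepatoblasts. Each group has 1 dose, the unit of the HFPO-TA dose cannot be read with certainty from the labels, and the length of exposure is not given in the sources used here. Whether the HFPO-TA cells also received DMSO is not recorded. Nothing in the labels tells whether replicates were separate cultures. The p-values therefore rest on the spread among 6 libraries, part or all of which may be technical.

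Heat shock proteins are chaperones: they bind unfolded or newly made proteins, keep them from clumping and help them to fold. HSF1 is held inactive in unstressed cells, in part by chaperones. When proteins unfold, it forms trimers and binds heat shock elements, inverted repeats of the letters GAA in the promoters of chaperone genes, and their mRNA rises quickly. Some of these genes, such as HSPA8 and the mitochondrial pair, are also strongly transcribed without stress. HSPD1 and HSPE1 lie head to head and encode the subunits of the folding chamber of the mitochondrial matrix.

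The promoters of these genes differ in the exact matches to heat shock elements that they hold. A few of them are printed here, the 250 bases before the gene's start, from RefSeq on GRCh38.p14. The set was chosen for the near-copies HSPA1A and HSPA1B, for HSPA8 with its pair of longer matches, and for the neighbours HSPD1 and HSPE1. Capitals mark matches to 3 alternating units, GAANNTTCNNGAA or its reverse complement TTCNNGAANNTTC, or to 2 units, GAANNTTC or TTCNNGAA, each of which is its own reverse complement. Every match of 3 units also holds matches of 2.
HSPA1A (chr6:31815293-31815542, plus strand): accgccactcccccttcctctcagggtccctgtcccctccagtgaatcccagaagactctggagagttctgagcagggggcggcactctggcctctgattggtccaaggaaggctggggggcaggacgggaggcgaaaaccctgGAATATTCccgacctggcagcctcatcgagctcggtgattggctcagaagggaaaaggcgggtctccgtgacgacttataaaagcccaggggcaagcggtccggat
HSPA1B (chr6:31827488-31827737, plus strand): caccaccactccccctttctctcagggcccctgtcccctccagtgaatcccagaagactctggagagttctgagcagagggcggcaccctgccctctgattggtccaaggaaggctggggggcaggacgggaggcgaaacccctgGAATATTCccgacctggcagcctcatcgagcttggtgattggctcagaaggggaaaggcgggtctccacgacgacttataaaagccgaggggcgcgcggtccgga
HSPA8 (chr11:123062137-123062386, minus strand): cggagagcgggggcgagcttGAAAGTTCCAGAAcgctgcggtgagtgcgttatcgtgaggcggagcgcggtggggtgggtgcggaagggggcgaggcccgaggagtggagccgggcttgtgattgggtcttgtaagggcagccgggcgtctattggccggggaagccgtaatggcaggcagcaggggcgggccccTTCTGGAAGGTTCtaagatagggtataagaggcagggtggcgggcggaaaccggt
HSPD1 (chr2:197499841-197500090, minus strand): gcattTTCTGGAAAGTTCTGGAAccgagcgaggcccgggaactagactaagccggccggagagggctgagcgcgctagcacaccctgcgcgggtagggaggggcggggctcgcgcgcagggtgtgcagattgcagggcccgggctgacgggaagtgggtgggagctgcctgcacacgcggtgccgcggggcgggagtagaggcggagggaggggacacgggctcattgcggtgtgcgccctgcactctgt
HSPE1 (chr2:197500129-197500378, plus strand): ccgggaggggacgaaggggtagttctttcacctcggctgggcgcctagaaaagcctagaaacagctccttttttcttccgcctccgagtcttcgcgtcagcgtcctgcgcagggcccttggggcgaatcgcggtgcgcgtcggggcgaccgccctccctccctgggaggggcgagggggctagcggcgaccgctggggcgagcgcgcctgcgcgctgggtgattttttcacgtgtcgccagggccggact

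Of the 10 genes 9 had a promoter window in the RefSeq table, some with more than 1 start. A match of 3 units stood before HSPA8, HSP90AA1 and HSPD1, and it stood in 0.441% of all 35116 windows of this length. A match of 2 units stood before 7 genes, these 3 and HSPA1A, HSPA1B, DNAJB1 and HSPB1, and in 11.6% of all windows. HSPA8 held 2 matches of 3 units, beginning 230 and 55 bases before its start. HSP90AA1 held its match 88 bases before its downstream start. HSPA1A and HSPA1B shared GAATATTC at 106 and 105 bases before the start, within windows that were 93.6% identical. In HSPD1 an unbroken run of 18 bases in capitals began 245 bases before the start shown. The starts of HSPD1 and HSPE1 shown here are 539 bases apart and point away from each other. No match was found in the windows of HSPE1 and HSPH1. The run before HSPD1 lies between the starts of HSPD1 and HSPE1, but outside the HSPE1 window. The HSPD1 window that holds the run ends at chr2:197500090, and the HSPE1 window begins at chr2:197500129. The absence for HSPE1 therefore depends on the length of the window. A match is a description of these letters and not evidence of binding. Units with a changed letter or another spacing were not searched for, so a window without a match may still hold an element. In GENCODE 29 on GRCh38 HSPA8 spans chr11:123057489-123063230, DNAJB1 chr19:14514770-14529770, HSPH1 chr13:31134974-31162388, HSP90AA1 chr14:102080738-102139699 and HSPD1 chr2:197486581-197516737, all on the minus strand. HSPB1 spans chr7:76302544-76304295 and HSPE1 chr2:197499994-197503457, both on the plus strand.

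None of the 10 genes passed the test between HFPO-TA and DMSO. In the limma fit over all 15664 tested genes 0 of 10 had a Benjamini-Hochberg adjusted p under 0.05, where 0.492% of tested genes did (0.185% higher and 0.306% lower with HFPO-TA). That balance depended on the libraries: of the 77 called genes 29 were higher, but all 5 called without HFPO-TA replicate 2 and all 7 called without DMSO replicate 3 were. At an unadjusted p under 0.05 there were 2 of the 10, HSPD1 and HSPB1, against 12.0% of tested genes. Differences lay between -0.23 for HSPB1 and 0.22 for HSPD1, given throughout as log2 fold changes on the log2(TPM + 1) scale, HFPO-TA minus DMSO. The 95% intervals of the 10 genes, each taken alone, reached from -0.44 to 0.38, so that the widest bounds corresponded to 0.737 and 1.30 times the DMSO level. The median difference was 0.09, with 7 genes above 0 and 3 below, against a median of -0.00764 over all tested genes. The 10 genes together took 0.203% ± 0.00832 of all TPM with HFPO-TA and 0.197% ± 0.00424 with DMSO (SD, n = 3 each). These are bulk libraries, in which fewer cells of a type and less RNA per cell cannot be told apart.

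**Figure D1:**
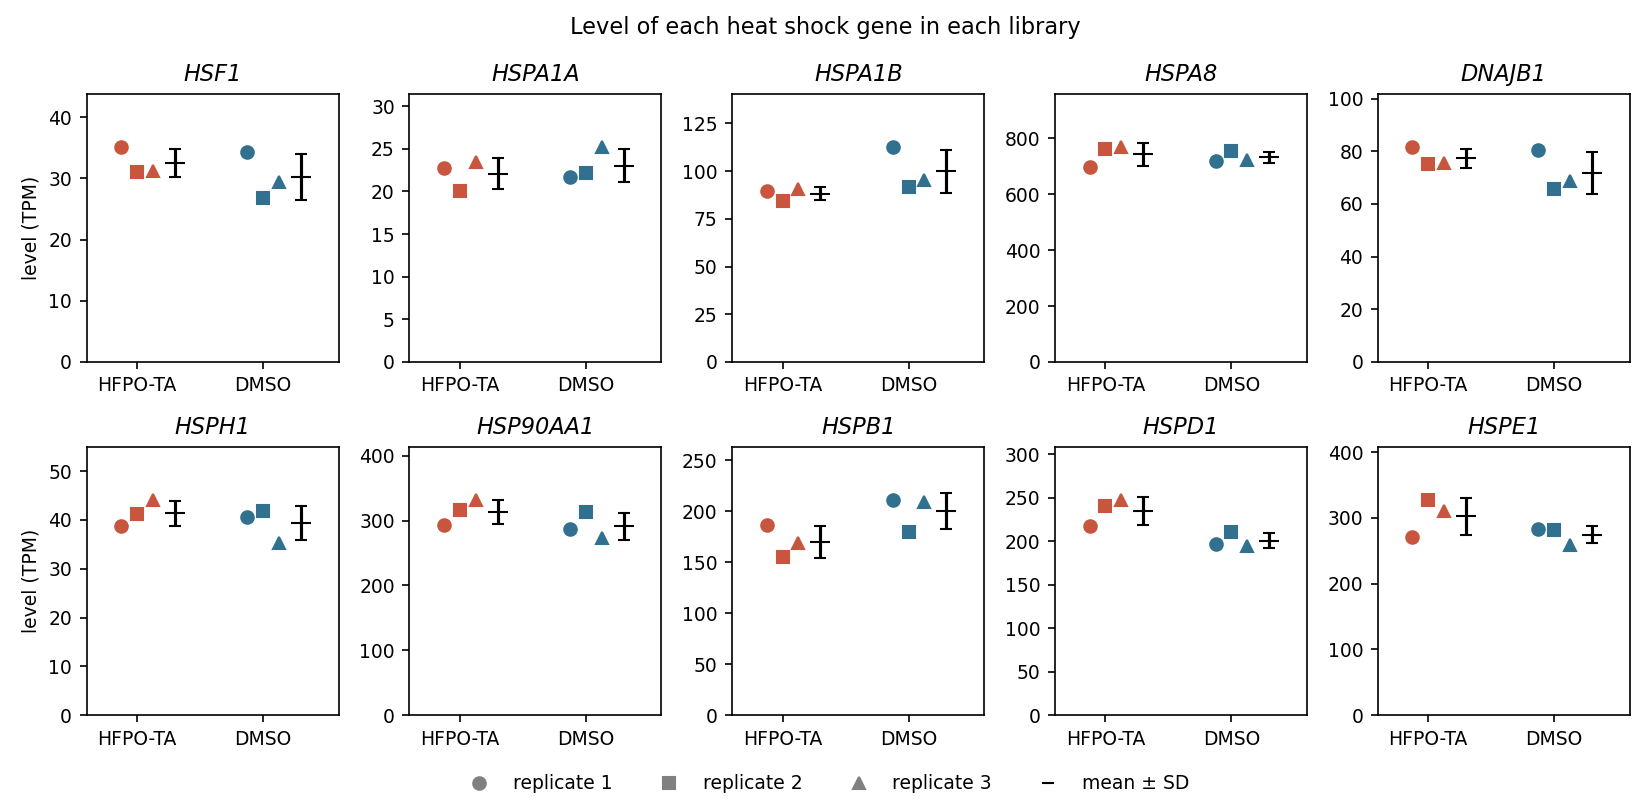
Level of each of the 10 heat shock genes in TPM (vertical axes from 0, a scale for each gene) in the 3 HFPO-TA and 3 DMSO libraries. Symbols are libraries by replicate number and bars are the mean ± SD. The groups do not overlap for HSPA1B, lower with HFPO-TA, and for HSPD1, higher with HFPO-TA.

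The libraries themselves differed in several respects. A letter in the deposited column headers, which the labels do not explain, parts replicate 1 from replicates 2 and 3 in both groups. The summed level of 9 stromal markers was 2277, 1124 and 1117 TPM in HFPO-TA replicates 1 to 3 and 1996, 1366 and 1557 TPM in DMSO replicates 1 to 3, highest in replicate 1 of each group. Not every stromal marker followed the sum: TAGLN stood at 104, 135 and 142 TPM in DMSO replicates 1 to 3. All 9 stromal log2 fold changes were negative and 0 were called. PDGFRA alone was lower without overlap of the groups, as were 9.4% of tested genes. The summed level of 12 hepatocyte and hepatoblast markers was 106435 to 115310 TPM with HFPO-TA and 116478 to 129771 TPM with DMSO, and the groups did not overlap. Without AFP that sum was 43284, 48506 and 48763 TPM with HFPO-TA, against 44796, 50709 and 50708 TPM with DMSO, and the groups overlapped. That smaller sum held differences in both directions. With HFPO-TA against DMSO, FGB (3453 ± 409 and 6737 ± 549 TPM), TTR (7349 ± 456 and 8820 ± 242 TPM), ALB and HNF4A were lower without overlap. APOA2 was higher without overlap (8253 ± 1042 and 5287 ± 666 TPM, SD, n = 3 each), and the remaining markers overlapped. Of the 12 markers 1 was called, FGB, lower with HFPO-TA (-0.97, adjusted p = 0.0104 by limma), against 0.492% of tested genes. At an unadjusted p under 0.05 there were 7, against 12.0% of tested genes. In 5, AFP and ALB (-0.80, adjusted p = 0.0522) included, every HFPO-TA library lay below every DMSO library, against 9.4% of tested genes. In 1, APOA2 (0.64, adjusted p = 0.089), every one lay above, against 8.55%. Differences were positive for 4 markers and negative for 8. By their summed level, markers of the labelled cell type were abundant in every library. Most of the full sum was AFP, the albumin-like protein secreted by the fetal liver, at 65021 ± 1828 TPM with HFPO-TA and 76581 ± 4242 TPM with DMSO (SD, n = 3 each). Of 7 markers each, pluripotent, endothelial and neural genes summed to at most 61.1 TPM in any library. Only SOX1, a neural marker, was at 0 in all 6. The most abundant gene of each list was present in every library. These were TDGF1 (pluripotent, 23.4 to 32.2 TPM), KDR (endothelial, 22.5 to 46.7 TPM) and STMN2 (neural, 17.5 to 37.2 TPM). The part of these differences in the values below was not tested. TPM keeps no sequencing depth, so the counting error behind each value is unknown.

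HSF1, the factor that switches the heat shock genes on, stood at 35.1, 31.0 and 31.3 TPM in the HFPO-TA libraries, against 34.3, 26.8 and 29.5 TPM in the DMSO libraries. Both groups were highest in replicate 1 and their ranges overlapped. The log2 fold change was 0.11 (SE 0.11, 95% interval -0.14 to 0.35, adjusted p = 0.763 by limma), at 0.03 in replicate 1 and 0.14 in replicates 2 and 3 together. HSF1 is regulated mainly at the level of its protein, so its mRNA level does not report its activity. It lies on chromosome 8, and 139 of its 5307 exon bases are shared with DGAT1 on the opposite strand, which stood at 167 TPM in both groups. Without knowledge of strand the value of HSF1 is to that extent uncertain.

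HSPA1A and HSPA1B, the stress-inducible HSP70 genes, encode nearly the same protein from neighbouring copies (GENCODE 29 on GRCh38, chr6:31815464-31817946 and chr6:31827735-31830255, both on the plus strand). Of the 50-base words in the transcripts of HSPA1A 71.3% also occur in those of HSPA1B, so the division of reads between them is uncertain and their sum is given too. HSPA1A stood at 22.8, 20.0 and 23.5 TPM with HFPO-TA, against 21.6, 22.2 and 25.2 TPM with DMSO, with overlapping groups. Its log2 fold change was -0.06 (SE 0.10, 95% interval -0.29 to 0.17, adjusted p = 0.877 by limma), and it stood just above 0 without DMSO replicate 3 (0.006) or HFPO-TA replicate 2 (0.008). HSPA1B stood at 89.8, 84.4 and 90.4 TPM with HFPO-TA, against 112.6, 91.4 and 95.6 TPM with DMSO. Every HFPO-TA library lay below every DMSO library for HSPA1B, as for 9.4% of tested genes, and the nearest pair, HFPO-TA replicate 3 and DMSO replicate 2, was about 1 TPM apart. Its log2 fold change was -0.17 (SE 0.09, adjusted p = 0.49), at -0.32 in replicate 1 and -0.10 in replicates 2 and 3 together.

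The sum of both was 112.6, 104.4 and 113.9 TPM with HFPO-TA, against 134.2, 113.7 and 120.8 TPM with DMSO. The groups overlapped, since HFPO-TA replicate 3 lay just above DMSO replicate 2. Its log2 fold change was -0.15 (SE 0.08, 95% interval -0.33 to 0.03, adjusted p = 0.493 by limma). HSPA1B made up 79.4% to 80.8% of the sum with HFPO-TA and 79.1% to 83.9% with DMSO. A processed transcript, AL671762.1, shares 920 exon bases with HSPA1B and stood at 6.38 TPM with HFPO-TA and 7.95 TPM with DMSO. HSPA6, an HSP70 gene that is nearly silent in human cells until they are heated, lay below the filter at 1.20, 0.69 and 0.83 TPM with HFPO-TA, against 0.87, 1.02 and 0.81 TPM with DMSO.

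HSPA8, the constitutive HSP70 that also uncoats clathrin vesicles, was the most abundant of the 10 genes. It stood at 696, 763 and 768 TPM with HFPO-TA, against 720, 753 and 723 TPM with DMSO. Its difference was the smallest of the 10 and its interval the narrowest (0.02, SE 0.06, 95% interval -0.11 to 0.15, adjusted p = 0.929 by limma). Its sign differed between replicate 1 (-0.05) and replicates 2 and 3 together (0.05), and it was -0.001 without HFPO-TA replicate 2 and -0.006 without HFPO-TA replicate 3. DNAJB1, the J-domain protein that hands unfolded proteins to HSP70, stood at 81.6, 75.0 and 75.7 TPM with HFPO-TA, against 80.7, 65.8 and 68.8 TPM with DMSO (log2 fold change 0.11, SE 0.09, adjusted p = 0.69). Like HSF1 it was highest in replicate 1 of each group, and the groups overlapped. Its difference was 0.02 in replicate 1 and 0.16 in replicates 2 and 3 together, and 211 of its exon bases are shared with TECR on the opposite strand. HSPH1, the HSP110 that swaps ADP for ATP on HSP70, stood at 38.8, 41.3 and 44.0 TPM with HFPO-TA, against 40.6, 41.9 and 35.4 TPM with DMSO (log2 fold change 0.07, SE 0.09, adjusted p = 0.814). Those groups overlapped as well, and its difference was -0.06 in replicate 1 and 0.14 in replicates 2 and 3 together.

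HSP90AA1, the inducible cytosolic HSP90, which matures kinases and steroid receptors, stood at 293, 316 and 331 TPM with HFPO-TA, against 286, 314 and 273 TPM with DMSO. The groups overlapped, and the log2 fold change was 0.11 (SE 0.07, 95% interval -0.06 to 0.27, adjusted p = 0.629 by limma), at 0.03 in replicate 1 and 0.14 in replicates 2 and 3 together. HSP90AB1, its constitutive relative, was the more abundant of the pair at 786, 780 and 773 TPM with HFPO-TA, against 742, 692 and 664 TPM with DMSO. The HSP90AB1 groups did not overlap, and its log2 fold change was 0.16 (SE 0.05, adjusted p = 0.29), short of the threshold.

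HSPB1, the small heat shock protein HSP27, which holds unfolded proteins and binds actin, had the lowest difference of the 10. It stood at 186, 155 and 169 TPM with HFPO-TA, against 211, 180 and 209 TPM with DMSO. The groups overlapped, because HFPO-TA replicate 1 lay above DMSO replicate 2. The log2 fold change was -0.23 (SE 0.09, 95% interval -0.44 to -0.02, unadjusted p = 0.0332, adjusted p = 0.36 by limma). It was -0.18 in replicate 1 and -0.26 in replicates 2 and 3 together, the same direction on both sides of the header letter.

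**Figure D2:**
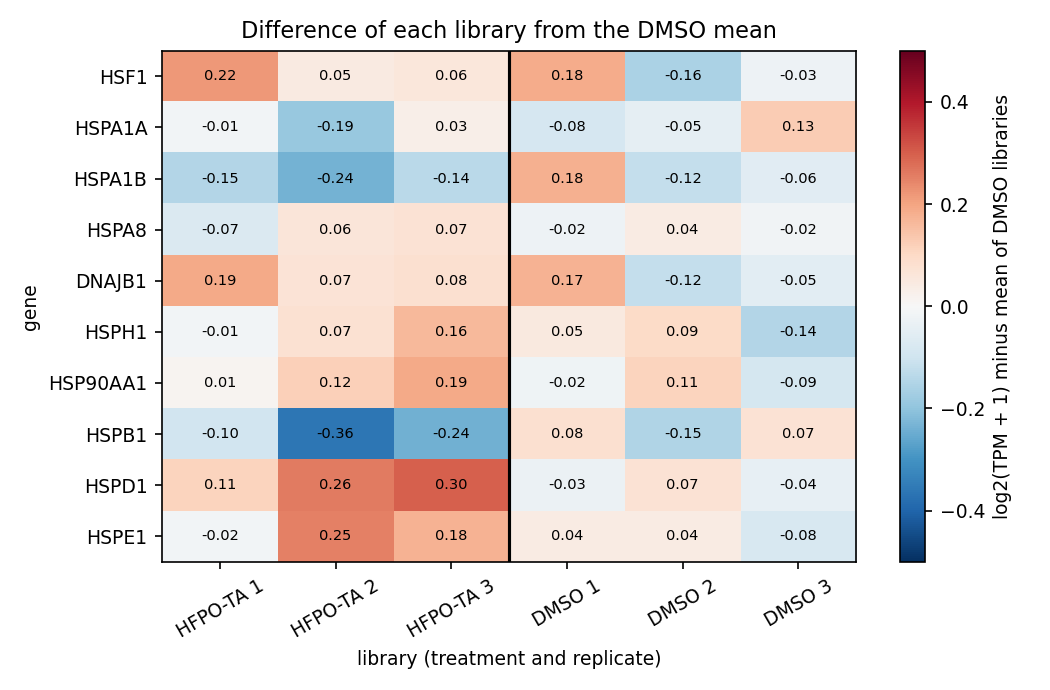
Difference of each library from the mean of the 3 DMSO libraries, on the log2(TPM + 1) scale, for the 10 genes (rows) in the 6 libraries (columns, HFPO-TA left of the line). HSPD1 is above 0 in all 3 HFPO-TA libraries (0.11, 0.26 and 0.30), as are HSF1, DNAJB1 and HSP90AA1, while HSPA1B and HSPB1 are below 0 in all 3, and HSF1 and DNAJB1 are highest in replicate 1 of both groups.

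HSPD1, the mitochondrial chaperonin HSP60, had the highest difference of the 10. It stood at 217, 240 and 247 TPM with HFPO-TA, against 197, 211 and 195 TPM with DMSO. Every HFPO-TA library lay above every DMSO library, as for 8.55% of tested genes. The log2 fold change was 0.22 (SE 0.07, 95% interval 0.06 to 0.38, unadjusted p = 0.0116, adjusted p = 0.244 by limma), which did not pass the test. It was 0.14 in replicate 1 and 0.26 in replicates 2 and 3 together. Over all alternative fits, HSPD1 ran from 0.18 to 0.28 with an adjusted p from 0.0713 to 0.592. Of its 50-base words 13.2% also occur in transcripts of other genes.

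HSPE1, the lid HSP10 that closes the chamber built by HSP60, stood at 271, 327 and 310 TPM with HFPO-TA, against 282, 282 and 259 TPM with DMSO. Its groups overlapped, since HFPO-TA replicate 1 lay below DMSO replicates 1 and 2. The log2 fold change was 0.14 (SE 0.08, 95% interval -0.05 to 0.32, adjusted p = 0.554 by limma), at -0.06 in replicate 1 and 0.23 in replicates 2 and 3 together. The direction therefore differed between the sides of the header letter. HSPD1 and HSPE1 share 281 exon bases on opposite strands in GENCODE 29, 6.62% of the exon bases of HSPD1 and 14.2% of those of HSPE1, so without knowledge of strand part of each value may come from the other gene.

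**Figure D3:**
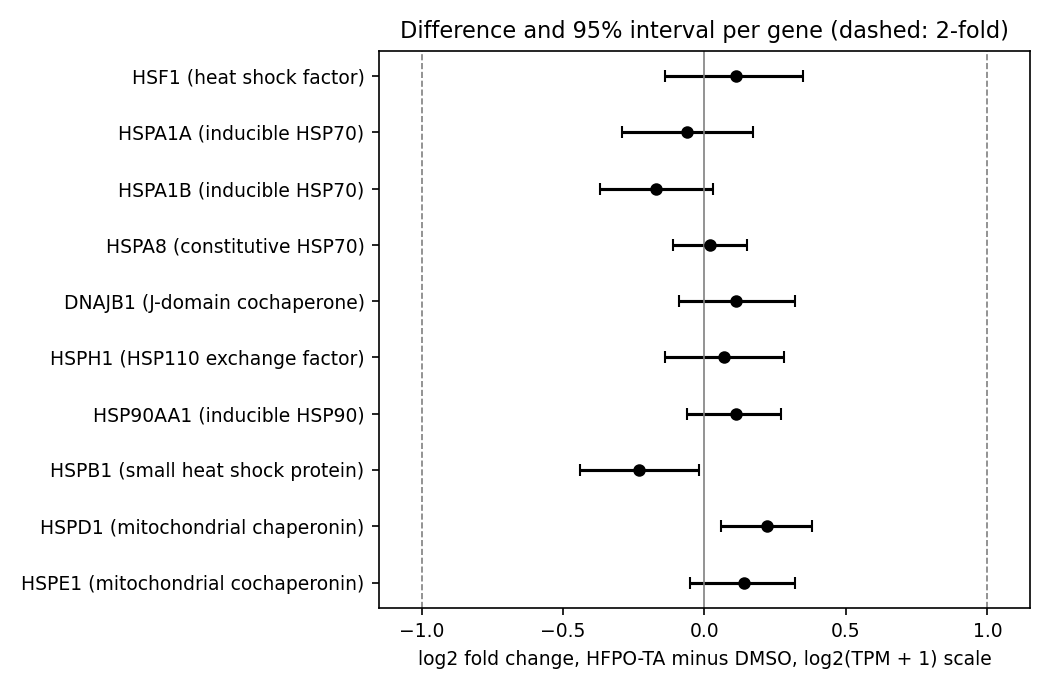
Log2 fold change (HFPO-TA minus DMSO, log2(TPM + 1) scale, points) with its 95% interval from limma (bars) for each of the 10 genes. Dashed lines mark a 2-fold difference, and no interval extends beyond -0.44 or 0.38.

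Ratios within a library compare genes per length and do not depend on the scaling of that library. HSPA1A plus HSPA1B over HSPA8, the inducible against the constitutive HSP70, was 0.162, 0.137 and 0.148 with HFPO-TA, against 0.186, 0.151 and 0.167 with DMSO. HSP90AA1 over HSP90AB1 was 0.373, 0.405 and 0.429 with HFPO-TA, against 0.386, 0.453 and 0.411 with DMSO. HSPE1 over HSPD1 was 1.25, 1.36 and 1.25 with HFPO-TA, against 1.44, 1.33 and 1.33 with DMSO. All these groups overlapped, as did those of DNAJB1 over HSPA8, at 0.105 ± 0.0108 with HFPO-TA and 0.0982 ± 0.0126 with DMSO (SD, n = 3 each). The log2 differences were -0.17 for the HSP70 ratio, 0.09 for DNAJB1 over HSPA8, -0.05 for the HSP90 ratio (0.003 without HFPO-TA replicate 1 and 0.012 without DMSO replicate 2) and -0.09 for the chaperonin ratio. With 1 library left out, DNAJB1 over HSPA8 ran from 0.011 without HFPO-TA replicate 1 to 0.194 without DMSO replicate 1. The HSP70 ratio was -0.249 at its lowest, with DMSO replicate 2 removed, and -0.096 at its highest, with DMSO replicate 1 removed, and the chaperonin ratio was -0.050 without DMSO replicate 1. By 2-sided exact permutation tests, p was 0.2, 0.5, 0.6 and 0.3 in that order, and 0.6 for each after adjustment over the 4 ratios, where 3 libraries against 3 allow no p below 0.1.

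The levels of the 10 genes themselves spread over a wide range. Per length and over all 6 libraries, HSPA8 averaged 737 TPM and lay at the 98.9th percentile of tested genes. HSP90AA1 (302 TPM) and HSPE1 (289 TPM) followed and overlapped in range, as did HSPD1 (218 TPM) and HSPB1 (185 TPM). Below them, with no overlap between neighbours, came HSPA1B (94.0 TPM), DNAJB1 (74.6 TPM), HSPH1 (40.3 TPM), HSF1 (31.3 TPM) and HSPA1A (22.5 TPM, 69.3rd percentile). The ranks of HSPA1A and HSPA1B carry the doubt over their shared reads. The relatives in other compartments were HSPA9, the mitochondrial HSP70, at 190 ± 23.2 TPM with HFPO-TA and 164 ± 11.5 TPM with DMSO, and HSPA5, that of the endoplasmic reticulum, at 429 ± 83.2 and 391 ± 22.9 TPM in the same order (SD, n = 3 each).

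The wider chaperone system gave no called gene either. Of 88 further genes in 9 lists by role, found on 89 rows, 81 rows passed the filter, 8 did not, and 0 were called higher or lower by limma, with 15 at an unadjusted p under 0.05 (18.5%, against 12.0% of all tested genes). The median log2 fold change was 0.09, 62 of the 81 lay above 0, and 24 had every HFPO-TA library above every DMSO library (29.6%, against 8.55% of tested genes), while 3 had every one below (3.7%, against 9.4%). HSPA14 stands on 2 rows under 1 symbol, and both are among the 24. DNAJA4, also among them, passed the filter through the HFPO-TA libraries alone, so its place there follows in part from the filter. It stood at 1.25, 1.05 and 1.17 TPM with HFPO-TA, against 0.78, 0.77 and 0.79 TPM with DMSO. These lists were drawn up with earlier results of these data known.

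The list of mitochondrial chaperones and proteases had the highest median of the 9, at 0.19. Of its 14 tested genes 0 were called, against 0.492% of all tested genes. An unadjusted p under 0.05 by limma was found for 6 (42.9%, against 12.0% of all tested genes). Of the 14 genes 12 lay above 0, where the median over all tested genes was -0.00764. In 6 the groups did not overlap, all of them higher with HFPO-TA (42.9%, against 8.55% of all tested genes). GRPEL1, the nucleotide exchange factor of mitochondrial HSP70, stood at 40.0, 41.8 and 39.8 TPM with HFPO-TA, against 31.6, 30.1 and 32.5 TPM with DMSO. Its groups were well apart, and its adjusted p, the lowest of the 81, was 0.0899 (log2 fold change 0.36, SE 0.07). The other 5 were named after their values were seen. GRPEL2, a second such factor, stood at 9.55 ± 0.292 TPM with HFPO-TA and 6.97 ± 0.572 TPM with DMSO (SD, n = 3 each, adjusted p = 0.19 by limma). TRAP1, the mitochondrial HSP90, stood at 114 ± 5.28 and 93.1 ± 10.1 TPM in the same order (adjusted p = 0.231). LONP1, the matrix protease that removes damaged proteins, stood at 69.7 ± 4.23 and 57.0 ± 4.06 TPM (adjusted p = 0.202). YME1L1 and AFG3L2, proteases of the inner membrane, had log2 fold changes of 0.21 and 0.15. Mitochondrially encoded genes took 6.63% ± 0.283 of all TPM with HFPO-TA and 6.32% ± 0.116 with DMSO (SD, n = 3 each), and their part in these values was not tested.

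The chaperonin TRiC, which folds actin and tubulin in the cytosol, had 8 tested subunits with a median of 0.10, of which 0 were called and 4 were higher without overlap of the groups (the highest share of the 9 lists, against 8.55% of all tested genes). TCP1, its first subunit, stood at 193, 220 and 227 TPM with HFPO-TA, against 191, 178 and 169 TPM with DMSO (log2 fold change 0.25, SE 0.08, adjusted p = 0.259 by limma). With replicates 2 and 3 alone TCP1 and TRAP1 were called higher (adjusted p = 0.042 and 0.0465 by limma). That fit called 265 of 14922 tested genes, against 77 of 15664 with all libraries. Among 12 HSP90 genes and cochaperones (median 0.08) the lowest p was that of SUGT1, a partner of HSP90 in immune and centromere complexes. SUGT1 stood at 41.9, 48.6 and 48.7 TPM with HFPO-TA, against 35.0, 38.1 and 34.8 TPM with DMSO (log2 fold change 0.36, SE 0.09, adjusted p = 0.142). Without HFPO-TA replicate 1 SUGT1 was called (adjusted p = 0.0498 by limma), in a fit that called 296 of 15342 tested genes.

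The other lists had medians between 0.00 and 0.15. Of 11 J-domain genes (median 0.09) DNAJC2, a ribosome-bound chaperone, had the lowest p, at 22.1 ± 1.75 TPM with HFPO-TA and 18.6 ± 1.19 TPM with DMSO (SD, n = 3 each, adjusted p = 0.396 by limma). Among 8 rows of further HSP70 and HSP110 genes (median 0.08) it was HSPA12A, a distant HSP70 relative, at 8.13 ± 1.0 and 10.4 ± 0.632 TPM in the same order (adjusted p = 0.334). Among 8 exchange factors and CHIP (median 0.11) BAG1 stood at 32.8 ± 5.34 and 26.2 ± 3.19 TPM (adjusted p = 0.419). The 4 tested small heat shock proteins had a median of 0.00, with CRYAB, alpha-B-crystallin, at 35.8 ± 8.57 and 40.1 ± 10.2 TPM (adjusted p = 0.853). HSF2, a second heat shock factor, led the 7 factors and regulators (median 0.15) at 17.7 ± 0.982 and 13.5 ± 3.96 TPM (adjusted p = 0.433). Of 9 other heat-inducible genes (median 0.06) CLU, the secreted chaperone clusterin, had the lowest p and a negative difference. CLU stood at 298, 333 and 356 TPM with HFPO-TA, against 414, 470 and 404 TPM with DMSO (log2 fold change -0.38, SE 0.08, adjusted p = 0.115 by limma), and its groups did not overlap.

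**Figure D4:**
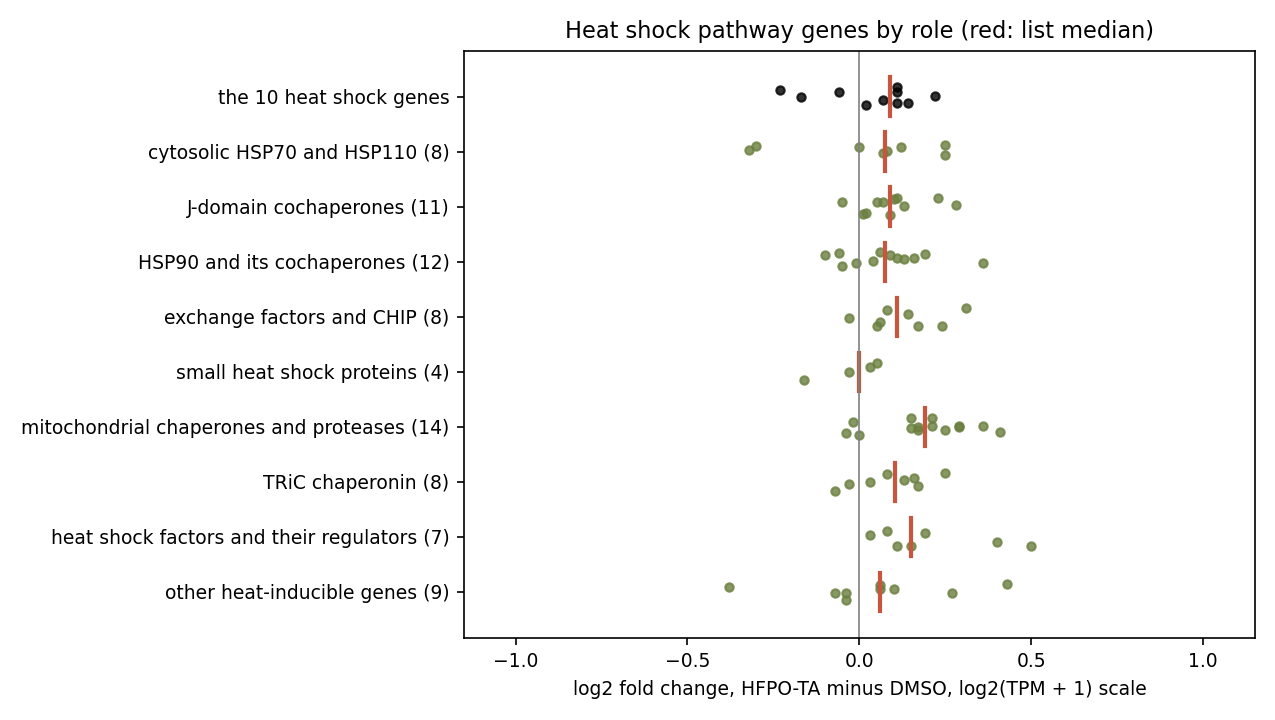
Log2 fold change (HFPO-TA minus DMSO, log2(TPM + 1) scale) of the 10 heat shock genes and of the tested rows in 9 further lists, with the number of rows in brackets. Points are genes and red lines are list medians, which run from 0.00 for small heat shock proteins to 0.19 for mitochondrial chaperones and proteases; no point shown passed the test.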

How the data were processed

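Each deposited file gave 1 value per gene. Per the file headers the values are FPKM, but the columns sum to between 995690 and 996186, so the deposited values were read as TPM. Per the submitters' processing notes, the tools were HISAT, Bowtie2 and RSEM and the build was GRCh38.p13. Their versions and roles, and whether counting used strand, are not stated. TPM is a share, so a rise of abundant genes lowers all others, and copies that share reads depend on how those were divided.

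From the deposited TPM values log2(TPM + 1) was taken, a gene was tested where 3 or more libraries reached 1 TPM, and limma 3.58.1 (R 4.3.3) was fitted over 15664 genes with treatment as the only term and a trended, robust variance. Called means a Benjamini-Hochberg adjusted p under 0.05 over all tested genes, 2-sided. The fit was tested on simulated data. The 10 genes, the lists and the rule for naming (all 10 genes, each list's called genes or, with none, the gene with the lowest p, and HSP90AB1, HSPA9 and HSPA5) were chosen with earlier results of these data known. Ratios used exact permutation (scipy 1.17.1). Positions and word sharing came from GENCODE 29, in which 58516 of 60623 identifiers were found, and promoters from RefSeq (GRCh38.p14). Figures used matplotlib 3.10.9. Alternatives covered the pseudocount, filter, variance, scaling, replicate block, header letter, each library left out and the sum of HSPA1A and HSPA1B.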

Additional observations from a re-analysis of the deposited data

How the results depend on the processing

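Under the 18 alternative fits 0 of the 10 heat shock genes were called in any, and 168 of 172 values kept their direction. Signs turned for HSPA1A, at 0.006 without DMSO replicate 3 and 0.008 without HFPO-TA replicate 2, and for HSPA8, at -0.001 without HFPO-TA replicate 2 and -0.006 without HFPO-TA replicate 3. With each library left out in turn, HSPA1A ran from -0.102 to 0.008 and HSPA8 from -0.006 to 0.065. Other differences kept their sign but moved by over 1.5 times. Without DMSO replicate 1, HSF1 and DNAJB1 were each 0.199 and HSPA1B -0.084. Without DMSO replicate 2, HSF1 was 0.028, DNAJB1 0.054, HSPH1 0.122 and HSP90AA1 0.162. Without DMSO replicate 3, HSPH1 was 0.002 and HSP90AA1 0.063. Without HFPO-TA replicate 1, HSF1 was 0.052, DNAJB1 0.075, HSPH1 0.119 and HSPE1 0.213. HSPE1 was 0.080 without HFPO-TA replicate 2, and without HFPO-TA replicate 3 HSPH1 was 0.031 and HSP90AA1 0.067. The HSP90AA1 over HSP90AB1 difference turned to 0.003 without HFPO-TA replicate 1 and 0.012 without DMSO replicate 2, in a range from -0.104 to 0.012. Called genes of the wider chaperone lists numbered 2 with replicates 2 and 3 alone and 0 to 1 with 1 library left out. Called genes over the whole table, 77 in the report, numbered 140 with a mean of at least 10 TPM, 32 with median-of-ratios and 40 with upper-quartile scaling, 29 with a minimum of 0.1 TPM, 10 without a filter, 11 with neither a trend nor a robust variance, 207 with a term for the header letter, 265 with replicates 2 and 3 alone and 5 to 296 with 1 library left out. Of those called, 72.7% were higher with neither a trend nor a robust variance, 60.0% without a filter and 29.4% without DMSO replicate 1, against 37.7% in the report. The higher calls were the majority without HFPO-TA replicates 2 (5 of 5) and 3 (6 of 9) and DMSO replicates 2 (10 of 14) and 3 (7 of 7). The cause was not tested. With the replicate block 30 were called over the whole table and 0 of the 10 genes (HSPD1 adjusted p = 0.199). Deviations of same-numbered libraries correlated at 0.184, 0.123 and 0.0282, so pairing by number was not established. Depth is unknown, so a small difference at a low level may lie within counting error.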

Other observations

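Genes whose promoter windows held exact matches to heat shock elements were counted across the whole table. Of the tested genes 46 had a promoter window with a match of 3 units, and 0 of them were called by limma in either direction, with 5 at an unadjusted p under 0.05 (10.9%, against 12.0% of all tested genes). Of these 5, named after their values were seen, DTNB (-0.57), HLA-G (-0.63) and PAPPA2 (-0.80) had negative log2 fold changes, and HSPD1 (0.22) and HSP90AB1 (0.16) positive ones. The median log2 fold change of the 46 was 0.000936, against -0.00416 for the 10923 tested genes with a window. Of the reference values given here, only this median is confined to genes with a window. The shares are set against all tested genes, with or without one. Every HFPO-TA library lay above every DMSO library for 4 of the 46 (8.70%) and below for 4 (8.70%), near the 8.55% and 9.4% of all tested genes. Of 1307 tested genes with a match of 2 units, 1 was called higher (ACSL5) and 5 lower (CHI3L2, EPB41L2, SULT1E1, GNRH2 and OCIAD1-AS1), together 0.459%, near the 0.492% of all tested genes. CHI3L2 and OCIAD1-AS1 passed the filter through the DMSO libraries alone, where they were the higher. CHI3L2 stood at 0.83, 0.23 and 0.76 TPM with HFPO-TA, against 2.92, 2.88 and 2.96 TPM with DMSO. OCIAD1-AS1 stood at 0.0 TPM in every HFPO-TA library, against 2.01, 1.59 and 3.17 TPM with DMSO. Of the 1307 genes 141 had an unadjusted p under 0.05 (10.8%), and the groups did not overlap for 120 higher (9.18%) and 128 lower (9.79%) with HFPO-TA.

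The 17 deposited rows of HSPD1 pseudogenes summed to 0.98 ± 0.115 TPM with HFPO-TA and 1.12 ± 0.361 TPM with DMSO, and the 17 of HSPA8 to 0.623 ± 0.208 and 0.727 ± 0.337 TPM in the same order (SD, n = 3 each). Those of HSPE1, on 26 rows, summed to 2.11 ± 2.01 TPM with HFPO-TA and 2.82 ± 1.62 TPM with DMSO, and those of HSP90AA1, on 4 rows, to 0.457 ± 0.153 and 0.463 ± 0.12 TPM. The 2 rows of HSPB1 pseudogenes summed to 1.2 ± 1.4 TPM with HFPO-TA and were listed at 0 in every DMSO library.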
